A study of Arabidopsis thaliana and Cardamine hirsuta and Capsella rubella with 102 samples.

Results

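Plant cells keep 2 small genomes outside the nucleus, and the transcripts described here come from them. The members are all genes whose identifiers start with ATCG, the genes of the plastid genome, or with ATMG, the genes of the mitochondrial genome. There were 210 of them, 88 plastid and 122 mitochondrial, among the 27416 genes of each *A. thaliana* count table. They were taken by identifier alone, so that no measured value entered the choice.

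The plastid genome codes for part of the photosynthetic apparatus and of its own gene expression machinery, and the mitochondrial genome for part of the respiratory chain. Plastid genes are read by an RNA polymerase of bacterial type, which needs sigma factors made in the nucleus, and by polymerases of phage type. Many are transcribed together and cut apart afterwards. In both organelles a poly(A) tail marks an RNA for decay, whereas in the cytosol it stabilizes mRNA. The libraries were made from RNA selected for poly(A), so that the counts read the polyadenylated share of organelle RNA and not its whole amount.

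Seedlings of wild-type accessions were 12 days old when treated with 1 µM flg22, a peptide of bacterial flagellin that plants sense as a sign of bacteria, or with mock. Col-0 seedlings received flg22 or mock for 1, 9, and 24 h, and seedlings of Kon, No-0, Can-0, Gy-0, and Kn-0 received flg22 or mock for 1 h. Each of the 16 groups had 3 replicates from 3 independent experiments, and each sample combined the seedlings of several wells. This gave 18 Col-0 libraries and 30 libraries of the 5 other accessions, 48 of the 102 libraries in the series.

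The Col-0 libraries held 21813097 to 35607867 counts on genes and the other accessions 14039779 to 28168094. The 4 flg22 marker genes, *FRK1*, *CYP81F2*, *WRKY29*, and *PER4*, were higher with flg22 in all 8 comparisons with mock. Shoot and root markers were present in every library, at 13470 to 62640 CPM summed over 5 shoot markers and 939 to 3065 CPM over 5 root markers. CPM is counts relative to a scaled library size. Levels come from whole seedlings, where fewer cells of a type and less RNA per cell cannot be told apart. The share of reads aligned to more than 1 place was 8.81% to 42.8% in Col-0 and 4.53% to 6.81% in the other accessions. These reads were not counted. Their share was taken from a summary line of the counting. Whether a read with several alignments entered that line more than 1 time was not settled, so that the share of reads may be lower. Between flg22 and mock, 0 to 3 of 5 shoot markers and 0 to 2 of 5 root markers passed at an adjusted *P*-value of 0.05, and their part in the results was not tested.

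Plastid genes took a small share of the counts and mitochondrial genes almost none. In Col-0 the plastid share averaged 1.299% of the counts on genes, with a lowest value of 0.743% and a highest of 2.01% over 18 libraries. In the other accessions it averaged 0.559%, between 0.436% and 0.797% over 30 libraries. The mitochondrial share averaged 0.00560% in Col-0 and 0.00210% in the other accessions. Mitochondrial values thus rest on 867 to 2583 counts per Col-0 library, and on 237 to 933 counts per library of the other accessions. Col-0 and the other accessions were sequenced in separate experiments with different read lengths, so that genotype and experiment cannot be told apart in this difference.

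Group means of the plastid share with flg22 and mock mostly lay close together, with the widest gap in Col-0 at 24 h. With flg22 for 1 h the plastid share in Col-0 was 1.47% ± 0.30, against 1.67% ± 0.33 with mock (SD, n = 3 each). At 24 h it was 0.987% ± 0.083 with flg22, against 1.43% ± 0.55 with mock. Among the mock samples at 24 h, replicate 2 had 2.01% and replicate 3 had 0.921%. In the other accessions the means lay between 0.495% in Kon and 0.645% in Gy-0 with flg22, against 0.497% in Kn-0 and 0.612% in Gy-0 with mock. Within replicate pairs the plastid share was higher with flg22 in 3 of 3 pairs in Gy-0 and No-0, in 2 of 3 in Can-0 and Kn-0, and in 1 of 3 in Kon. In Col-0 it was higher in 1 of 3 pairs at 1 and 9 h and in 0 of 3 at 24 h. The differences within pairs averaged 0.0333 percentage points in Gy-0 (SD 0.0140) and 0.0387 in No-0 (SD 0.0381). In Col-0 at 24 h they averaged −0.445 percentage points (SD 0.515). No test was run on the shares.

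**Figure D1:**
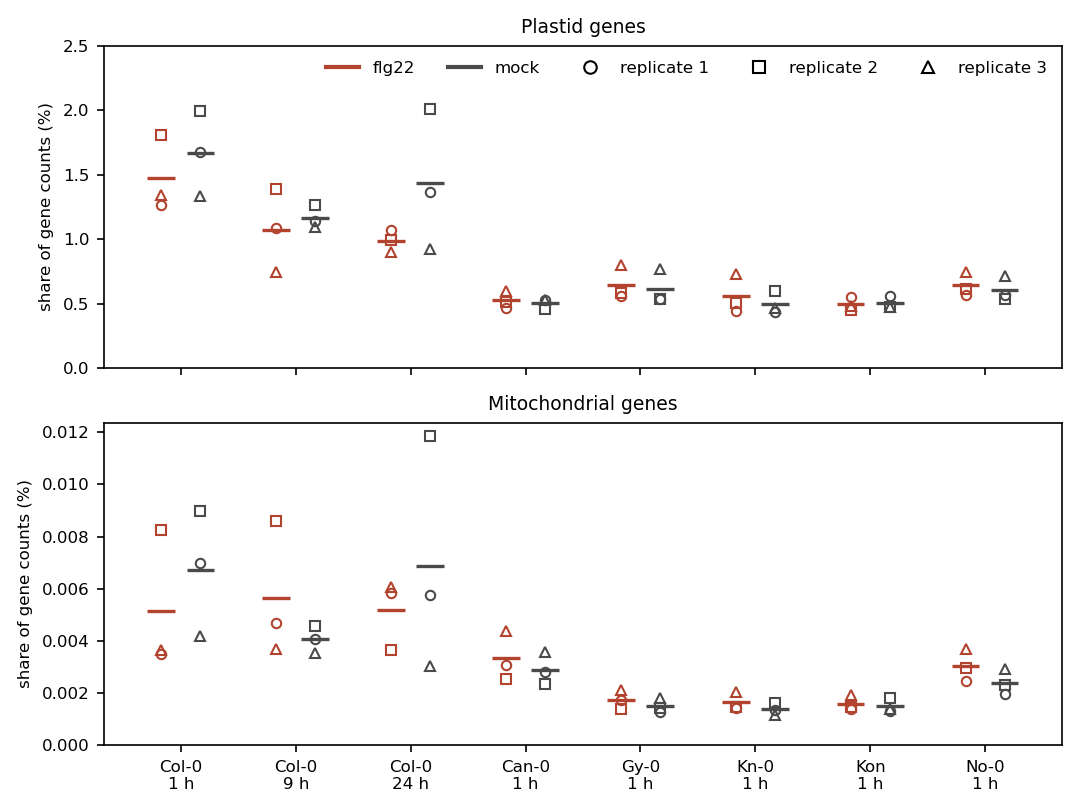
Share of counts on genes (percent, y axis) that fell on plastid genes (top) and mitochondrial genes (bottom) in each library, by genotype and time (x axis), with flg22 in red and mock in gray, a symbol per replicate and a bar at the mean of 3. Plastid shares reached 2.01% in Col-0 and reached 0.797% in the other accessions, and the values with flg22 and mock overlapped in all 8 pairs of groups for both genomes.

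A few genes made up most of the plastid counts, although shares are not corrected for gene length. In Col-0, ATCG01130 held 20.9% ± 1.9 of the plastid counts (SD, n = 18), ATCG00790 held 11.5% ± 1.2, and ATCG00800 held 8.63% ± 2.78. The 5 genes with the highest counts together held 55.7% ± 4.2. ATCG01020 took 21.7% ± 7.0 of the plastid counts in Gy-0 and 19.3% ± 9.4 in No-0 (SD, n = 6 each), where it ranked first. In Col-0 its share was 4.72% ± 2.06.

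Many members had no counts at all. Of the 210 genes, 49 had 0 counts in all 48 libraries, 47 of them mitochondrial. Tests were run on genes whose mean reached 10 counts. In Col-0 these were 77 plastid and 24 mitochondrial genes, while 56 members stayed under the filter and 53 had 0 counts. In each of the other accessions 70 plastid genes passed, with 11 mitochondrial genes in Kon, 12 in Kn-0, 13 in Gy-0, 15 in No-0, and 17 in Can-0.

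Reads from repeated sequence align to more than 1 place and were left out by the counting, and both organelle genomes have such copies. The plastid genome carries an inverted repeat, and chromosome 2 of the nucleus carries a large insertion of mitochondrial DNA. In the RefSeq plastid sequence of assembly TAIR10.1, 63 of 83 coding sequences had no stretch of 100 bases that occurred elsewhere in the assembly, and in 10 every stretch was repeated. Of 33 mitochondrial coding sequences, 5 had no repeated stretch and 16 were repeated throughout. Stretches of 100 bases match the read length of Col-0, while the reads of the other accessions were longer. A stretch repeated over 100 bases need not be repeated over the whole of a longer read. The mitochondrial sequence of this assembly may differ from the one that the authors counted on. The files pair no gene names with these identifiers. RefSeq notes on nuclear genes name 60 of the members, 7 plastid and 53 mitochondrial, and the other 150 are given by identifier only.

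The contrast can be seen in single genes. ATCG01310, ribosomal protein L2, had 0 to 14 counts per library, and every 100-base stretch of rpl2 occurs in both copies of the inverted repeat. ATCG00660, ribosomal protein L20, had 62 to 343 counts, and rpl20 has no repeated stretch. ATMG00990, named NADH dehydrogenase 3 in the annotation, a subunit of complex I of the respiratory chain, had 0 to 5 counts, and every stretch of nad3 also lies in chromosome 2. The sequences show these cases by the first 100 coding bases, with the start codon in capitals and coordinates of TAIR10.1.
rpl2, copy 1, plastid genome 85744-85843, minus strand: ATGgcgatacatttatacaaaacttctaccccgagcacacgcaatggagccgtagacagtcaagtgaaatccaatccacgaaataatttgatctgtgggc
rpl2, copy 2, plastid genome 152806-152905, plus strand: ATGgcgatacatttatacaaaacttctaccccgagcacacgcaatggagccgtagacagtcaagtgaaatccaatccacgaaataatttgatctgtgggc
rpl20, plastid genome 68766-68865, minus strand: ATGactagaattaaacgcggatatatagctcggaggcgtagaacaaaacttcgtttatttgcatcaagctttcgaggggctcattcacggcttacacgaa
nad3, as found in chromosome 2 at 3270008-3270107, plus strand: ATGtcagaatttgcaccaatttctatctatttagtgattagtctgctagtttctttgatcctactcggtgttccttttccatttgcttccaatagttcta
The copies of rpl2 are identical, and a read from either one has no single place. A count near 0 for such a gene is therefore no measure of its RNA.

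Other genes could be linked to a single coding sequence by name. The plastid genes cemA, rpl20, and clpP had no repeated stretch and had counts from 62 to 4111 per library. The mitochondrial genes rpl5, cob, rps4, atp8, cox3, nad3, atp1, and rps7 were each contained in chromosome 2 and had between 0 and 12 counts. Subunit 9 of ATP synthase could not be linked in this way, since the notes give this name to ATMG01080 and to ATMG01090. The atp9 coding sequence was repeated throughout in chromosome 2, and ATMG01080 had 0 or 1 counts, but ATMG01090 had 5 to 31 counts in the Col-0 libraries and was tested. Of the 53 mitochondrial identifiers named in notes on nuclear genes, 3 passed the filter in Col-0, against 21 of the 69 not named there. The shares with 0 counts in all libraries lay closer together, at 43.4% of those named (23 genes) and 34.8% of those not named (24 genes).

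The first comparison asked which organelle transcripts differed between flg22 and mock in Col-0 after 1 h. A minority of the plastid genes tested was called, and the largest rises among them were those of ATCG01110 and ATCG01100. By the rule of a DEG, an absolute log2 fold change above 1 at an adjusted *P*-value below 0.01, 5 plastid genes were higher and 0 lower (edgeR's quasi-likelihood test). Over all 20295 genes tested, 11.9% met this rule, 9.64% higher and 2.30% lower. At an adjusted *P*-value below 0.05 alone, 12 of 77 plastid genes were higher and 3 lower, and over all genes 18.9% were higher and 19.2% lower. The median log2 fold change of the plastid genes was −0.04 and that of all genes −0.09. Of the 77 plastid genes, 38 had a log2 fold change above 0 and 39 below.

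ATCG01110 had 218, 23.6, and 242 CPM in flg22 replicates 1 to 3, against 30.9, 8.90, and 33.8 CPM in mock replicates 1 to 3. It rose in each pair of replicates, by a log2 fold change of 2.49 (SE 0.58, adjusted *P* = 0.00293), but replicate 2 lay far below the others in both treatments. ATCG01100 had 129.9, 19.3, and 125 CPM with flg22, against 14.1, 12.8, and 12.2 CPM with mock. Its groups did not overlap, and the log2 fold change was 2.44 (SE 0.58, adjusted *P* = 0.00375).

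ATCG01070 had 13.01, 2.89, and 8.795 CPM with flg22, against 2.56, 2.03, and 1.59 CPM with mock (log2 fold change 1.87, SE 0.47). ATCG01050 had 31.3, 8.84, and 27.6 CPM with flg22, against 6.04, 7.31, and 4.39 CPM with mock (1.80, SE 0.48). Neither gene had overlapping groups, and replicate 2 was again the lowest with flg22. ATCG01120 had 93.7, 24.4, and 100.1 CPM with flg22, against 36.0, 14.0, and 34.6 CPM with mock, groups that overlap (1.29, SE 0.34). Together with ATCG01060 and ATCG01090, which passed at 0.05 with log2 fold changes of 1.24 and 1.06, these genes have identifiers between ATCG01050 and ATCG01120.

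Among the other higher genes, ATCG00760 had 185, 15.4, and 178 CPM with flg22, against 27.5, 7.35, and 27.8 CPM with mock (log2 fold change 2.34, SE 0.66, adjusted *P* = 0.0107). ATCG00770 and ATCG00820 rose by 1.31 and 0.87 on the log2 scale. ATCG00280 rose by 1.06. Neighbors in identifier did not all go the same way. Between ATCG00770 and ATCG00820, ATCG00790 had log2 ratios of −0.64, −0.091, and −0.23 in the 3 pairs and ATCG00800 of −0.18, 0.43, and 0.15, and neither passed. The other genes between them went mostly with the rise, ATCG00780 with 0.62, 0.73, and 0.98 and ATCG00810 with 0.86, −0.029, and 0.97.

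The 3 lower genes had identifiers between ATCG00430 and ATCG00650. ATCG00430 is named photosystem II reaction center protein G in a note on a nuclear gene. No plastid coding sequence was linked to it by that name, so that its role was not settled. It had 113, 973, and 96.9 CPM with flg22, against 565, 1557, and 366 CPM with mock. It was lower in each pair, by a log2 fold change of −1.54 (SE 0.56, adjusted *P* = 0.0401), while replicate 2 was the highest in both treatments and made the groups overlap. ATCG00440 had 23.3, 202, and 23.12 CPM with flg22, against 118, 257, and 89.5 CPM with mock (−1.44, SE 0.53). ATCG00650 had 16.7, 134, and 13.5 CPM with flg22, against 101.7, 200.1, and 56.7 CPM with mock (−1.63, SE 0.56).

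**Figure D2:**
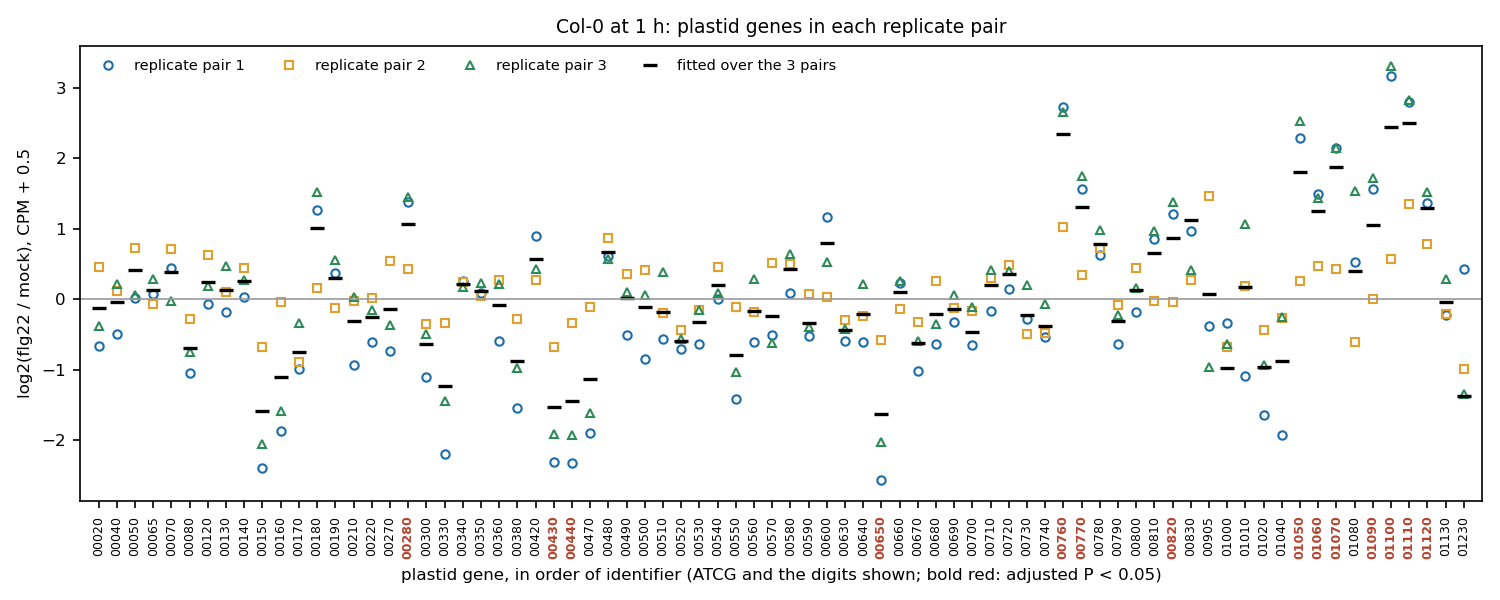
Log2 ratio of flg22 to mock in Col-0 at 1 h (y axis, from CPM plus 0.5) for the plastid genes described, in order of identifier (x axis), with a symbol for each replicate pair and a black bar at the fitted log2 fold change. Identifiers in bold red passed an adjusted *P*-value of 0.05. Pairs 1 and 3 run together, with values above 2 for several genes between ATCG00760 and ATCG01110, and pair 2 stays nearer to 0.

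Replicate pairs 1 and 3 shared this pattern more closely than pair 2 did. Over the 77 plastid genes, which are not independent, the log2 ratios of pairs 1 and 3 had an *r* of 0.92, and 59 genes had the same sign. Pairs 1 and 2 had an *r* of 0.53, and pairs 2 and 3 of 0.50. The counts of called genes therefore turned on the replicates. Without replicate 2, 34 members passed at 0.05, 18 higher and 16 lower, and 19 passed the DEG rule. Without replicate 1 the counts were 0 and 0, and without replicate 3 they were 6 and 1. Without the replicate block, 7 members passed at 0.05 and 0 passed the DEG rule.

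The share of reads aligned to more than 1 place moved with several of these genes. It was 9.68%, 23.8%, and 11.7% with flg22 in replicates 1 to 3 at 1 h, against 18.7%, 31.2%, and 16.0% with mock, and so lower with flg22 in each pair. The 5 of 18 Col-0 libraries with the highest shares, 23.8% to 42.8%, were also the 5 with the lowest levels of ATCG01110, 8.90 to 24.9 CPM against 30.9 to 242 CPM in the others. For ATCG00760 the same 5 libraries had 7.02 to 16.96 CPM, against 25.8 to 185 CPM in the others. For ATCG01100 the ranges overlapped, with 9.46 to 25.7 CPM against 12.2 to 129.9 CPM, and 3 of the 5 were among its 5 lowest. ATCG00430 ran the other way, and 4 of the 5 libraries with its highest levels were among them. The part of these reads in the result was not tested.

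No mitochondrial gene passed at 1 h in Col-0. Of 24 tested, 0 had an adjusted *P*-value below 0.05 with edgeR, 1 had an unadjusted *P*-value below 0.05, and DESeq2 and limma-voom called 1 each. Their median log2 fold change was −0.35, and 7 of 24 were above 0.

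At 9 h few members differed between flg22 and mock. Of 101 members, 0 passed the DEG rule by edgeR, DESeq2, or limma-voom, where 11.1% of all genes did (6.51% higher and 4.55% lower), and 7 had an unadjusted *P*-value below 0.05 with edgeR. At 0.05 alone, 1 plastid gene was higher and 2 lower, against 18.6% and 17.6% of all genes. ATCG00040 fell to 18.5, 20.1, and 19.98 CPM with flg22, against 29.0, 39.0, and 38.9 CPM with mock, with no overlap (log2 fold change −0.86, SE 0.23, adjusted *P* = 0.00735). ATCG00800 had 1127, 490.5, and 689 CPM with flg22, against 1294, 1481, and 949.95 CPM with mock (−0.77, SE 0.24, adjusted *P* = 0.0200). ATCG00700 had 1.18, 3.95, and 0.924 CPM with flg22, against 0.467, 0.929, and 0.730 CPM with mock, and rose by 1.32 (SE 0.49). Without replicate 1 or replicate 2, 1 member passed, and without replicate 3, 6 passed.

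The log2 fold changes of the mitochondrial genes at 9 h were above 0 for 23 of 24, with a median of 0.49 beside −0.02 over all genes. With edgeR 0 of them passed and 2 had an unadjusted *P*-value below 0.05, while DESeq2 and limma-voom called 1 each. Summed over all mitochondrial genes, the mitochondrial share was 0.00466%, 0.00859%, and 0.00368% with flg22, against 0.00406%, 0.00457%, and 0.00352% with mock. It was higher with flg22 in each pair, and the groups overlapped.

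The genes with the highest mean count in each of 15 lists of identifiers were mostly without a call in Col-0. ATCG00430 was the 1 among them that passed at 1 h, and 0 passed at 9 or 24 h. Not all of them were abundant, and ATMG00520, with a mean of 6.22 counts, stayed under the filter and was not tested. The shares of all genes called are given with the counts for each time. ATCG01130, which held the most plastid counts, was not called at any time.

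At 24 h the called members were all lower with flg22. At 0.05, 6 plastid genes and 1 mitochondrial gene were lower and 0 members higher, where 7.03% of all genes were lower and 12.8% higher. The DEG rule called 0 members with edgeR, 3 with DESeq2, and 1 with limma-voom, and 7.23% of all genes with edgeR (6.06% higher and 1.17% lower). With edgeR, 13 members had an unadjusted *P*-value below 0.05. The median log2 fold change of the plastid genes was −0.32. ATCG01080 had 6.94, 4.42, and 6.95 CPM with flg22, against 12.2, 43.3, and 16.4 CPM with mock, with no overlap (−1.74, SE 0.48, adjusted *P* = 0.0171). ATCG00190 had 36.5, 34.6, and 28.1 CPM with flg22, against 45.2, 79.2, and 42.5 CPM with mock, also with no overlap (−0.74, SE 0.20, adjusted *P* = 0.0129).

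ATCG01070, ATCG01050, and ATCG01090, which were higher at 1 h, were among the lower genes at 24 h. ATCG01070 had 2.14, 1.24, and 1.89 CPM with flg22, against 2.83, 5.24, and 6.99 CPM with mock (−1.53, SE 0.47). ATCG01050 had 7.39, 3.39, and 7.13 CPM with flg22, against 7.53, 22.1, and 18.4 CPM with mock (−1.50, SE 0.48). In both genes mock replicates 2 and 3 were high and mock replicate 1 lay next to the flg22 values. ATCG01000 fell by 2.66 on the log2 scale at a mean of 18.2 counts, and ATMG01120 by 1.53 at a mean of 24.7 counts. Without replicate 1, 4 members passed at 0.05, and without replicate 2, 3 passed. Without replicate 3 the DEG rule called 2. The share of reads aligned to more than 1 place was 17.3%, 12.9%, and 27.2% with flg22, against 17.9%, 42.8%, and 9.99% with mock, and its part was not tested.

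**Figure D3:**
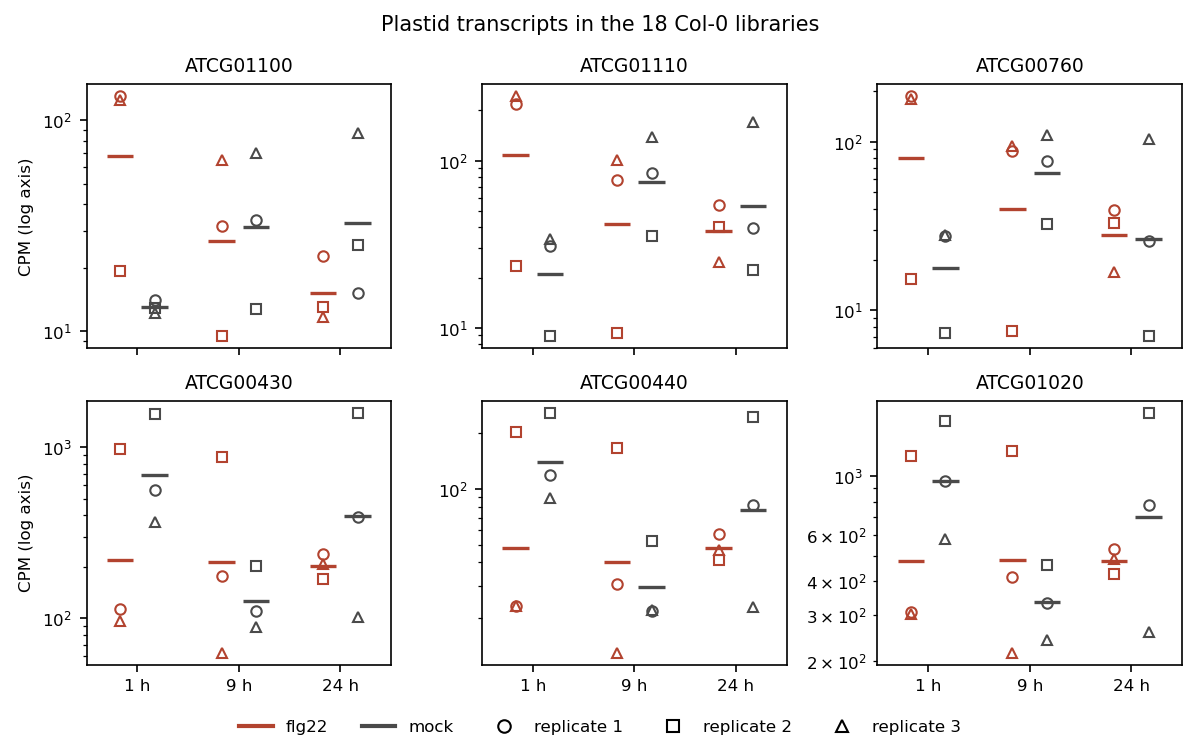
Levels of 6 plastid genes in the 18 Col-0 libraries (CPM on a log axis, y axis) at 1, 9, and 24 h (x axis), with flg22 in red and mock in gray, a symbol per replicate and a bar at the geometric mean of 3. ATCG01100, ATCG01110, and ATCG00760 (top) were high in flg22 replicates 1 and 3 at 1 h, and ATCG00430, ATCG00440, and ATCG01020 (bottom) were highest in replicate 2 of mock at 1 and 24 h.

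Whether the flg22 effect changed between times was tested in the same fit, a test added after the values had been seen. Between 9 and 1 h, 10 of 101 members had a different effect at 0.05, 9 plastid genes with a lower value at 9 h and ATMG00580 with a higher one. Over all genes 9.15% were lower and 6.40% higher. Between 24 and 1 h, 9 plastid genes had a lower value and 0 a higher one, where 6.10% and 3.03% of all genes did. ATCG01110 had a log2 fold change of 2.49 at 1 h, and its effect was lower by −3.21 at 9 h and by −2.73 at 24 h. Both tests share the 1 h samples. Without replicate 1 the counts were 0 and 2, without replicate 2 they were 16 and 26, and without replicate 3 they were 3 and 0.

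Mock seedlings also changed between the times, with no peptide involved. At 9 h against 1 h, 25 members were lower and 2 higher at 0.05, where 27.4% of all genes passed, 12.2% lower and 15.2% higher. The DEG rule called 11 plastid genes, all lower, where 8.07% of all genes met it (5.08% higher and 2.98% lower). The medians were −0.54 for plastid genes, −0.73 for mitochondrial genes, and 0.01 for all genes. Hours after treatment, age, and time of day cannot be told apart here.

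ATCG00300 had 12.8, 22.7, and 26.2 CPM at 9 h, against 76.7, 131.6, and 63.4 CPM at 1 h (log2 fold change −2.05, SE 0.35, adjusted *P* = 0.000419). ATCG00430 had 109.7, 203, and 89.3 CPM at 9 h, against 565, 1557, and 366 CPM at 1 h (−2.37, SE 0.57). ATCG00670, the plastid-encoded subunit of the Clp protease, had 40.8, 54.9, and 40.7 CPM at 9 h, against 94.9, 165.6, and 72.9 CPM at 1 h (−1.19, SE 0.31). None of these groups overlapped. The other 8 that met the DEG rule were ATCG00080, ATCG00160, ATCG00380, ATCG00440, ATCG00640, ATCG00650, ATCG00740, and ATCG01020, with log2 fold changes between −2.44 and −1.08. ATCG01110 and ATCG00760, which were higher with flg22 at 1 h, were the 2 higher members, with log2 fold changes of 1.83 and 1.89.

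Of the 5 shoot markers, 3 were lower at 9 h than at 1 h in mock, with a median log2 fold change of −0.999, and 0 of 5 root markers passed. The summed shoot markers reached 18730 to 21980 CPM at 9 h, against 38130 to 49870 CPM at 1 h. Their part in the lower plastid levels was not tested. Without replicate 1, 2 members passed at 0.05 and 0 the DEG rule, and without replicate 3 the DEG rule called 5. Without the replicate block, 3 passed at 0.05 and 1 the DEG rule. With each organelle scaled to its own total, which takes out what its genes share, the DEG rule called 3.

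At 24 h against 1 h in mock, 2 members passed at 0.05, where 33.1% of all genes did, 17.4% higher and 15.6% lower. ATCG01050 had 7.53, 22.1, and 18.4 CPM at 24 h, against 6.04, 7.31, and 4.39 CPM at 1 h (1.40, SE 0.48). ATCG00220 had 830.3, 1165.5, and 487.5 CPM at 24 h, against 1569, 1255, and 876 CPM at 1 h (−0.61, SE 0.21). The DEG rule called 0 members with edgeR, DESeq2, and limma-voom, where 9.22% of all genes met it (5.84% higher and 3.38% lower), and with edgeR 11 had an unadjusted *P*-value below 0.05. All 5 shoot markers were lower at 24 h than at 1 h, and their part was not tested. Without replicate 2, 10 members passed at 0.05, and without replicate 3 or without the replicate block, 0 passed.

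In the other accessions flg22 for 1 h was followed by small rises across many plastid genes. In No-0 all 70 plastid genes tested had a log2 fold change above 0, and 47 passed at 0.05. In Gy-0 41 passed, in Kon 21, and in Kn-0 8, all higher, and in Can-0 4 were higher and 1 lower. Over all genes the higher share at 0.05 was 25.0% in No-0, 22.9% in Gy-0, 21.1% in Kon, 13.4% in Kn-0, and 21.2% in Can-0, and the lower share 22.4%, 22.1%, 21.7%, 7.65%, and 21.6%. The median log2 fold changes of the plastid genes were 0.56, 0.48, 0.43, 0.58, and 0.02 in this order, and those of all genes between −0.06 and −0.02.

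Several abundant genes were among those called. ATCG00470 rose by 0.42 in Gy-0, 0.86 in Kon, and 0.59 in No-0, and ATCG00670, the Clp protease subunit, by 0.42, 0.51, and 0.49. ATCG01130 rose by 0.24 in Gy-0 and by 0.43 in No-0. Relative to the plastid total, a scale from which the shared rise is taken out, ATCG00670 was at −0.049 in No-0 and ATCG01130 at −0.11 in both. ATCG00630 rose by 0.70 in Gy-0, 0.69 in Kn-0, 0.80 in Kon, and 0.78 in No-0.

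The counts of called members were close under scalings that keep a shared rise. All of these are set by the bulk of the genes, so that their closeness does not test the scaling itself. With library sizes from nuclear genes, 52 members passed at 0.05 in No-0, 41 in Gy-0, 21 in Kon, 8 in Kn-0, and 6 in Can-0, and with DESeq2's size factors 52, 39, 22, 8, and 6. With each organelle scaled to its own total, which by construction takes out a rise common to its genes, 8 members passed in No-0, 13 in Gy-0, 4 in Kon, 5 in Kn-0, and 4 in Can-0. The plastid share of the counts was 0.644% ± 0.093 with flg22 in No-0, against 0.605% ± 0.093 with mock (SD, n = 3 each). In Kon, where 21 plastid genes were called higher, it was 0.495% ± 0.050 with flg22, against 0.501% ± 0.050 with mock. It was higher with flg22 in 1 of 3 Kon pairs. Shares are relative to unscaled totals, and why they and the fold changes differ was not tested. Without the replicate block, 0 members passed in No-0, 1 in Gy-0, 2 in Kon, 3 in Kn-0, and 0 in Can-0. Replicate 3 had the highest plastid share in both treatments in Gy-0 and No-0, and the block compares within pairs.

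**Figure D4:**
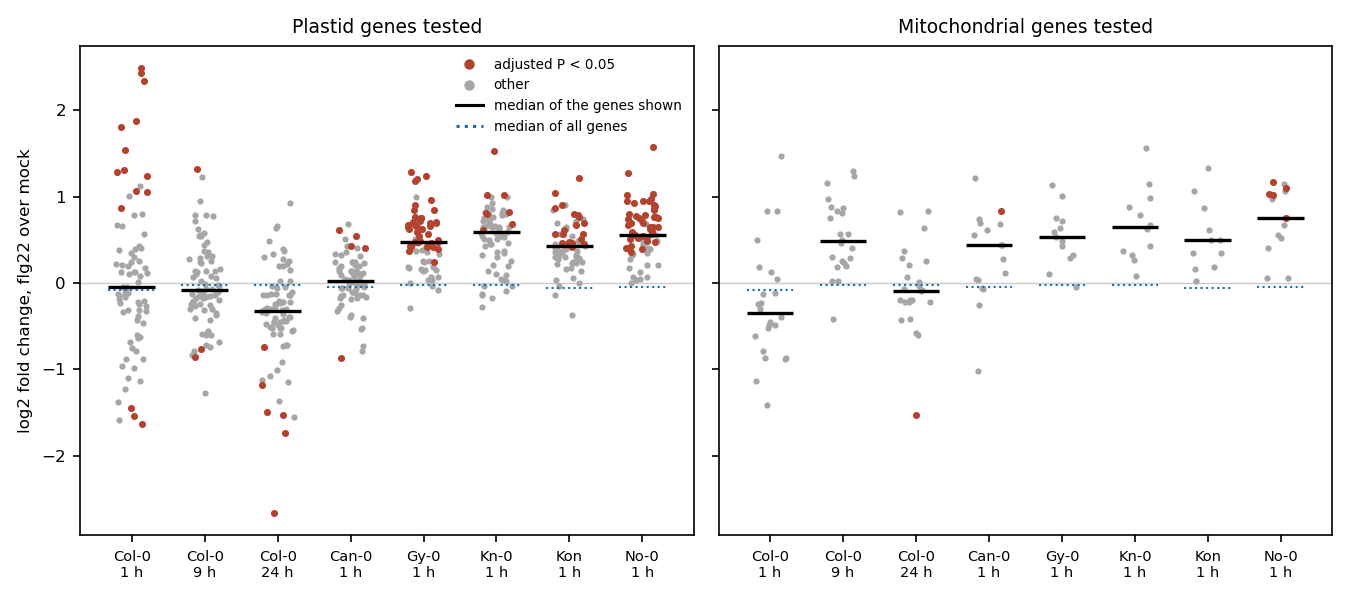
Log2 fold change of flg22 over mock (y axis) for each plastid gene (left) and mitochondrial gene (right) tested, by genotype and time (x axis), with genes at an adjusted *P*-value below 0.05 in red, black bars at the median of the genes shown and dotted bars at the median of all genes. Plastid genes spread between −1.63 and 2.49 in Col-0 at 1 h, and in No-0 they lay above 0 and reached 1.57.

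By the DEG rule 6 members were higher and 0 lower in No-0, where 20.7% of all genes met it (13.6% higher and 7.11% lower). ATCG00600 had 4.04, 4.87, and 10.4 CPM with flg22, against 0.975, 2.01, and 3.86 CPM with mock, with no overlap (1.57, SE 0.29, adjusted *P* = 7.35e-06). ATCG00590 and ATCG01040 rose by 1.02 and 1.03. The 3 others were mitochondrial. ATMG00640 had 2.64, 3.31, and 4.32 CPM with flg22, against 0.836, 2.07, and 2.15 CPM with mock, with no overlap (1.1002, SE 0.35). ATMG00670 had 3.03, 3.56, and 7.44 CPM with flg22, against 1.21, 1.80, and 3.36 CPM with mock (1.17, SE 0.31). ATMG00690 rose by 1.03 (SE 0.27). With ATMG00660 and ATMG01360, 5 of 15 mitochondrial genes passed at 0.05. Without replicate 2 the DEG rule called 11 members, and without replicate 3 it called 3.

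In Gy-0 the DEG rule called ATCG00020, which had 88.0, 116.6, and 163 CPM with flg22, against 44.3, 60.9, and 56.5 CPM with mock. The groups did not overlap (1.18, SE 0.12, adjusted *P* = 5.71e-06), and 14.8% of all genes met the rule (10.5% higher and 4.32% lower). In Kn-0 it called ATCG00220, with 61.8, 69.9, and 116 CPM with flg22, against 29.4, 35.9, and 57.1 CPM with mock (1.02, SE 0.14, adjusted *P* = 0.00279), where 9.21% of all genes met it (7.57% higher and 1.65% lower). In Kon it called 2 genes, where 20.4% of all genes met it (12.9% higher and 7.47% lower). ATCG01080 had 2.85, 3.995, and 4.81 CPM with flg22, against 1.44, 1.79, and 1.67 CPM with mock (1.21, SE 0.30). ATCG00550 had 5.71, 8.68, and 10.9 CPM with flg22, against 3.64, 4.63, and 3.57 CPM with mock (1.05, SE 0.24). Both had no overlap.

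The numbers moved with single replicates in these accessions as well. In Gy-0 25 members passed at 0.05 without replicate 2. In Kn-0 21 passed without replicate 2, which also gave 2 by the DEG rule, and 13 without replicate 3. In Kon 10 passed without replicate 1, and the DEG rule called 5 without replicate 1, 0 without replicate 2, and 1 without replicate 3.

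Can-0 differed from this picture in its counts. The DEG rule called 0 members with edgeR, DESeq2, and limma-voom, where 16.4% of all genes met it (11.3% higher and 5.15% lower), and 11 had an unadjusted *P*-value below 0.05 with edgeR. At 0.05, ATCG00770 rose by 0.61 (adjusted *P* = 0.00920), ATCG00750 by 0.54, ATCG00810 by 0.43, and ATCG00800 by 0.41, ATMG00160 rose by 0.83, and ATCG01060 fell by 0.86. Without replicate 1, 14 members passed, without replicate 2, 2 passed, and without replicate 3, 0 passed. Without replicate 2 the DEG rule called 1.

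Side by side, 6 plastid genes were higher at 0.05 in 4 of the 5 accessions, namely ATCG00040, ATCG00220, ATCG00420, ATCG00630, ATCG01020, and ATCG01080. In each case the accession without a call was Can-0. A further 9 were called in 3 accessions, 24 in 2, 22 in 1, and 9 in 0. No mitochondrial gene was called in more than 1. In Gy-0, Kn-0, and Kon, 0 of 13, 12, and 11 passed with edgeR, and 2, 2, and 1 had an unadjusted *P*-value below 0.05. DESeq2 called 0 there, and limma-voom 1 in Gy-0, 0 in Kn-0, and 1 in Kon. ATCG01080 had log2 fold changes of 1.24 in Gy-0, 1.52 in Kn-0, 1.21 in Kon, and 0.89 in No-0, beside 0.01 in Can-0. ATCG01020 had 0.50, 0.80, 0.69, and 0.86 in the same order, beside 0.02 in Can-0.

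A difference of the flg22 effect among the 5 accessions was tested in 1 fit over 30 libraries without the block. It passed at 0.05 for 0 of 84 members with edgeR, DESeq2, and limma-voom, and for 1.02% of all genes. With edgeR and DESeq2, 3 members had an unadjusted *P*-value below 0.05, and with limma-voom 2. This fit does not use the pairing of flg22 and mock samples by replicate. A fit with a block for each accession and replicate number, added after the values had been seen, found a difference for 2 of 84 members with edgeR, where 14.3% of all genes passed, and 16 members had an unadjusted *P*-value below 0.05. The 2 were ATCG00040 (adjusted *P* = 0.0442) and ATCG00550 (adjusted *P* = 0.0218). ATCG00040 had log2 fold changes of −0.25 in Can-0, 0.70 in Gy-0, 0.82 in Kn-0, 0.47 in Kon, and 0.75 in No-0, and ATCG00550 of −0.39, 0.48, 0.82, 1.05, and 0.95 in the same order. Both were below 0 in Can-0 and above 0 in the other accessions. The test asks for any difference among the 5 and does not single out Can-0.

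The accessions also differed from each other in mock, where few plastid genes met the DEG rule. Each accession was compared with the mean of the other 4. ATCG00440 was the clearest case. No-0 had 206, 209.7, and 232 CPM in mock, above every other accession, with a log2 difference of 2.24 (SE 0.17, adjusted *P* = 4.66e-10). Gy-0 had 17.3, 18.4, and 27.4 CPM, below every other accession (−1.96, SE 0.23, adjusted *P* = 6.63e-07). Can-0, Kn-0, and Kon lay between with 33.9 to 70.4 CPM.

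ATCG00270 split the accessions in a different way. It had 290.4, 270.3, and 389 CPM in Can-0 mock (log2 difference 1.88, SE 0.26) and 223, 209.95, and 398 CPM in Gy-0 mock (1.64, SE 0.26). In Kon it had 51.6, 61.8, and 38.2 CPM (−1.43, SE 0.32), and in Kn-0 45.4, 74.7, and 41.9 CPM (−1.31, SE 0.32, adjusted *P* = 0.0109). No-0 lay at 44.4 to 110.1 CPM, and overlapped with Kn-0 and Kon.

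ATCG00630 was low in Gy-0, with 2.86, 2.07, and 4.61 CPM in mock, against 16.2 to 79.0 CPM in the other accessions (−3.19, SE 0.64, adjusted *P* = 0.00154). ATCG01020 was low in Kon, with 118, 192, and 131 CPM, against 417 to 2091 CPM in the others (−2.57, SE 0.63, adjusted *P* = 0.00919). ATCG00020 had 218, 383, and 411 CPM in No-0 (1.70, SE 0.31) and 44.3, 60.9, and 56.5 CPM in Gy-0 (−1.60, SE 0.38). ATCG00430 was higher in No-0 by 1.197 (SE 0.18), and ATCG00280 in Gy-0 by 1.201 (SE 0.26). Whether a low count reflects less RNA or reads lost to sequence differences from the reference cannot be told apart from these counts.

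**Figure D5:**
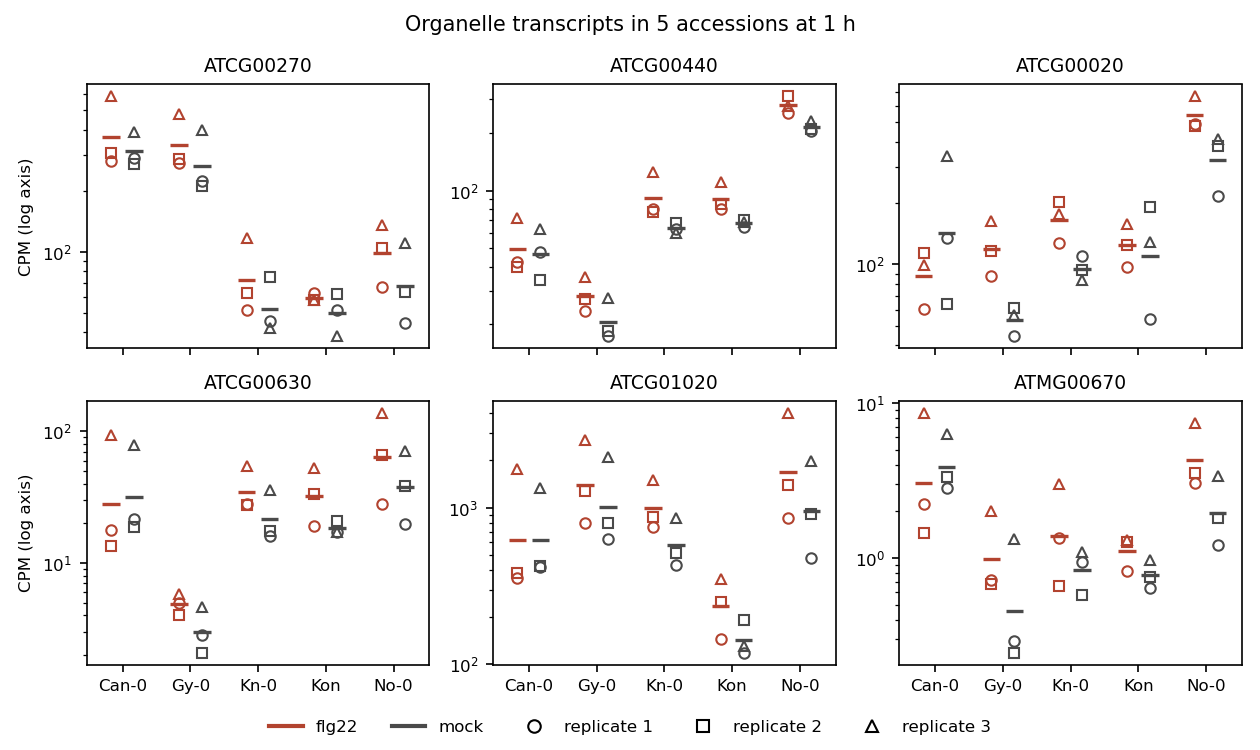
Levels of 6 organelle genes in the 30 libraries of 5 accessions at 1 h (CPM on a log axis, y axis), by accession (x axis), with flg22 in red and mock in gray, a symbol per replicate and a bar at the geometric mean of 3. ATCG00440 was highest in No-0 and lowest in Gy-0, ATCG00630 was below 6 CPM in Gy-0 alone, and ATCG01020 was lowest in Kon.

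By the DEG rule 4 members were higher in Can-0, 2 were higher and 3 lower in Gy-0, 2 were lower in Kon, 3 were higher in No-0, and 0 differed in Kn-0. Over all genes the rule called 4.65% in Can-0 (2.67% higher and 1.98% lower), 3.41% in Gy-0 (2.21% and 1.20%), 3.51% in Kon (1.94% and 1.57%), 4.43% in No-0 (2.58% and 1.85%), and 2.92% in Kn-0 (1.93% and 0.991%). At 0.05 alone, 2 of 70 plastid genes passed in Can-0, 10 in Gy-0, 3 in Kon, and 11 in No-0. Of 14 mitochondrial genes, 3 passed in Can-0, 0 in Gy-0, 0 in Kon, and 3 in No-0. These counts stand without the share of all genes at 0.05. In No-0, 29 plastid genes had an unadjusted *P*-value below 0.05 with edgeR, 26 higher and 3 lower. In Kn-0, 1 member passed at 0.05, as did 5.63% of all genes, 9 members had an unadjusted *P*-value below 0.05, and DESeq2 and limma-voom called 1 member each by the DEG rule. The 3 mitochondrial genes higher in Can-0 were ATMG00040 with a log2 difference of 2.22, ATMG00670 with 2.07, and ATMG01370 with 1.89. ATMG00040 had 1.63, 1.45, and 3.17 CPM in Can-0, against 0.0929 to 1.05 CPM in the others.

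These counts changed without single replicates. Without replicate 1 the DEG rule called 1 member in Can-0, 2 in Gy-0, and 0 in Kon. Without replicate 2 it called 2 in Can-0, 1 in Gy-0, 0 in Kon, and 1 in No-0. Without replicate 3 it called 8 in Gy-0 and 11 in No-0. The 1 member that passed at 0.05 in Kn-0 no longer did without replicate 1 or replicate 2. With the replicate number as a block, the DEG rule called 6 in Can-0, 10 in Gy-0, 2 in Kn-0, 6 in Kon, and 11 in No-0.

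A few mitochondrial identifiers had counts in some accessions and next to none in others. ATMG01170 had a mean of 56.4 counts per library in Col-0 and 20.7 in Gy-0. It had 0 counts in all libraries of Can-0, Kn-0, and No-0, and at most 1 in Kon. ATMG01090, named ATP synthase 9 in the annotation, had means of 12.9 counts in Col-0, 8.0 in Can-0, and 13.8 in Gy-0. It had 0 counts in Kon and No-0 and at most 1 in Kn-0. It shares its name with ATMG01080, and whether it lies in repeated sequence was not settled. ATMG01330 had at most 3 counts in Kn-0, and means of 10 in Can-0, 7.39 in Col-0, 4.83 in Kon, 4.5 in No-0, and 3.33 in Gy-0. The choice of these identifiers required at most 3 counts per library in 1 or more of the 5 accessions besides Col-0. It also required a mean of at least 10 counts in another.

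Nuclear genes that act on the organelle genomes were also called, lower with flg22 in most cases and higher in mock Col-0 between 9 and 1 h. A list of 20 genes for plastid transcription held the 6 sigma factors, the phage-type polymerases RPOTp and RPOTmp, and 12 proteins bound to the plastid-encoded polymerase (PAP1 to PAP12). After 1 h of flg22, 11 were lower at 0.05 and 0 higher in Col-0, with a median of −0.37. Over all genes 19.2% were lower there, with a median of −0.09. In No-0 and Gy-0 15 were lower, in Kon 14 with 1 higher, in Can-0 9 with 1 higher, and in Kn-0 8. The shares of all genes that were lower were 22.4% in No-0, 22.1% in Gy-0, 21.7% in Kon, 21.6% in Can-0, and 7.65% in Kn-0. In Col-0, 14 were lower at 9 h, beside 17.6% of all genes, and 7 at 24 h, beside 7.03%. By the DEG rule 0 were lower in Col-0 at all times and in Can-0, against 2 in Gy-0, 4 in Kn-0, 7 in Kon, and 6 in No-0, where 4.32%, 1.65%, 7.47%, and 7.11% of all genes were.

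*SIG4*, a sigma factor, fell by 2.48 on the log2 scale in No-0 and by 2.56 in Kn-0, and *PAP2* fell by 2.03 in Kon. *SIG1* fell in Col-0 by 0.95 (adjusted *P* = 0.000210) and in No-0 by 1.31. Of 6 genes for RNA turnover in the organelles, 1 was lower in Col-0 at 1 h and 5 at 9 h, with 1 at 24 h. At 1 h 4 were lower in Gy-0 and in Kon, 2 in No-0, and 0 in Can-0 and Kn-0, and 0 were higher in any of these. *PNP*, the plastid polynucleotide phosphorylase, fell in Gy-0 by 0.835 and in Kon and No-0 by 0.83. Between 9 and 1 h in mock Col-0, 12 of the 20 transcription genes were higher and 2 lower, beside 15.2% and 12.2% of all genes. *SIG1* fell by 2.09, *SIG5* fell by 1.59, and *RNJ*, the gene of a plastid ribonuclease, rose by 2.18.

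For the mitochondria, *AOX1A*, the alternative oxidase that bypasses part of the respiratory chain, rose in Col-0 at 1 h by 1.97 (adjusted *P* = 2.39e-07), and *NDB2*, an alternative NADH dehydrogenase, by 1.60. Both also rose at 1 h in the 5 other accessions, *AOX1A* by 0.96 to 2.22 and *NDB2* by 0.96 to 2.52. In Col-0 both were also higher with flg22 at 9 h and passed, *AOX1A* by 0.70 and *NDB2* by 1.435. At 24 h neither passed, with log2 fold changes of 0.51 for *AOX1A* and 0.12 for *NDB2*. Mock Col-0 seedlings themselves had more of both at 24 h than at 1 h, *AOX1A* by 1.94 and *NDB2* by 1.72. The flg22 effect at 24 h is thus relative to a mock level above that at 1 h. The mitochondrial polymerase gene *RPOTm* fell at 1 h in Kn-0, Kon, and No-0 by 0.96, 0.58, and 0.51. Another *AOX1* gene, *AOX1C*, did not rise in this way, at group means of 0.485 to 1.29 CPM in Col-0. With flg22 in Col-0 it did not pass at 1 h (0.67) or at 9 h (−0.56). At 24 h it was lower (−1.36, adjusted *P* = 0.0473 with edgeR). In Gy-0 and Kon at 1 h *AOX1C* had −0.51 and −1.52 and did not pass.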

How the data were processed

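The authors enriched poly(A) RNA and made stranded libraries, aligned the reads with TopHat2 and counted them with HTSeq 0.6.0 on TAIR10. The deposited values are raw counts per gene. Reads of the other accessions were mapped to the Col-0 genome and, as a check, to SNP-corrected genomes, and the authors went on with the Col-0 mapping. Whether the deposited tables hold it is not given in the sources used here. HTSeq's summary lines were left out of library sizes and tests. Relative to the counts on genes and these lines together, multiply aligned reads made up 4.53% to 42.8% and reads on no gene 1.63% to 6.76%.

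Genes whose mean reached 10 counts were tested in each genotype's table with edgeR 4.0.16 (R 4.3.3), with TMM scaling, the quasi-likelihood test and Benjamini-Hochberg adjustment over all genes. The replicate number, which marks 1 of 3 independent experiments, was a block in these fits. Accessions were compared in 1 fit over 30 libraries without the block, and their flg22 effects also with a block for each accession and replicate number. Same-numbered samples mostly deviated together, with a correlation above 0.1 in 21 of 24 pairs (lowest −0.07, median 0.42). The remaining pairs were those of Col-0 at 24 h, with 0.059, 0.052, and −0.068 for replicates 1 to 3. The pairing was thus not seen in the counts at that time, although the block was used there too. DEGs had an absolute log2 fold change above 1 at an adjusted *P*-value below 0.01. Alternatives were DESeq2 1.42.0, limma-voom (limma 3.58.1), other scalings and filters, the block, and leaving out each replicate. No 2 replicates of a group were duplicates. Members were named where they met the DEG rule, had the highest mean count in 1 of 15 lists of identifiers, or had counts in some accessions and next to none in others. Those named for a call at 0.05 alone were chosen after their values were seen. The members and gene lists were chosen with earlier results of these data known. Coding sequences and names came from RefSeq (TAIR10.1). 1 item is not reported here. The figures were drawn with matplotlib 3.10.9. *P*-values cover the spread between these samples.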

Additional observations from a re-analysis of the deposited data

Results flagged for a closer look

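The effect of flg22 in Col-0 differed between times for the following members, by a test of the difference itself at an adjusted *P*-value below 0.05 (edgeR's quasi-likelihood test). The test was chosen after the values had been seen, and all values are differences of log2 fold changes. Between 9 and 1 h they were −2.89 for ATCG00760, −1.89 for ATCG00770, −1.61 for ATCG00780, −1.26 for ATCG00810, and −1.12 for ATCG00820. They were also −2.09 for ATCG01070, −2.61 for ATCG01100, −3.21 for ATCG01110, and −1.97 for ATCG01120. ATMG00580 was the 1 mitochondrial gene among them, with 2.29.

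Between 24 and 1 h the differences were −2.13 for ATCG00180, −1.04 for ATCG00190, and −1.35 for ATCG00820. They were −3.30 for ATCG01050, −2.25 for ATCG01060, −3.40 for ATCG01070, −2.24 for ATCG01090, −3.58 for ATCG01100, and −2.73 for ATCG01110. Both comparisons share the 1 h samples, and both counts changed without single replicates, as given with the counts of these tests.

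The effect of flg22 at 1 h differed among the 5 accessions for ATCG00040 (adjusted *P* = 0.0442) and ATCG00550 (adjusted *P* = 0.0218), by edgeR's test of the difference with a block for each accession and replicate number. This test was also chosen after the values had been seen, and without the block 0 members passed.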

How the results depend on the processing

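The counts are of members meeting the DEG rule, or, where stated, at an adjusted *P*-value below 0.05 alone. Without the replicate block, flg22 against mock gave 0 in Col-0 at 1 h (7 at 0.05), 1 at 0.05 at 9 h, 2 at 0.05 at 24 h, 0 at 0.05 in Can-0, 0 in Gy-0 (1 at 0.05), 0 in Kn-0 (3 at 0.05), 0 in Kon (2 at 0.05), and 0 in No-0 (0 at 0.05). In mock Col-0 it gave 1 (3 at 0.05) between 9 and 1 h and 0 at 0.05 between 24 and 1 h, and the difference of the flg22 effect between 9 and 1 h fell to 0 members. With a replicate block within each accession, chosen after seeing the data, the flg22 effect differed among the 5 accessions for 2 members at 0.05. With the replicate block, the mock comparisons among accessions gave 16 at 0.05 in Can-0, 10 (21) in Gy-0, 2 (7) in Kn-0, 6 (10) in Kon, and 11 (38) in No-0. With each organelle scaled to its own total, which takes out any change its genes share, flg22 against mock gave 23 at 0.05 in Col-0 at 1 h, 1 at 24 h, 0 (13 at 0.05) in Gy-0, 0 (5) in Kn-0, 0 (4) in Kon, and 1 (8) in No-0. In mock it gave 3 between 9 and 1 h, 1 (7 at 0.05) between 24 and 1 h, 1 in Can-0, 1 (2) in Kn-0, and 5 at 0.05 in No-0. DESeq2 gave 8 in Col-0 at 1 h, 3 at 24 h, 5 at 0.05 between 24 and 1 h in mock, 3 at 0.05 in Can-0, 2 (13 at 0.05) in Kn-0, 1 (3) in Kn-0 mock, and 5 in No-0 mock, and its size factors in edgeR gave 1 in Kon mock. limma-voom gave 1 in Col-0 at 24 h, 2 in Gy-0, and 1 in Kn-0 mock. With all genes of at least 1 count there were 8 in Col-0 at 1 h, 6 at 0.05 between 24 and 1 h in mock, 2 in Gy-0, 9 at 0.05 in Can-0 mock, and 1 in Kn-0 mock. With library sizes from nuclear genes there were 0 in Kn-0.

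Leaving out 1 replicate at a time gave, for flg22 against mock, 0 to 19 (0 to 34 at 0.05) in Col-0 at 1 h, 1 to 6 at 0.05 at 9 h, and 0 to 2 (3 to 9) at 24 h. In the other accessions it gave 0 to 1 (0 to 14) in Can-0, 1 to 1 (25 to 32) in Gy-0, 1 to 2 (7 to 21) in Kn-0, 0 to 5 (10 to 29) in Kon, and 3 to 11 (39 to 43) in No-0. In mock Col-0 it gave 0 to 9 (2 to 32) between 9 and 1 h and 0 to 10 at 0.05 between 24 and 1 h. The mock comparisons among accessions gave 1 to 3 (2 to 6) in Can-0, 1 to 8 (3 to 15) in Gy-0, 0 to 1 at 0.05 in Kn-0, 0 to 2 (0 to 4) in Kon, and 1 to 11 (3 to 29) in No-0. Differences of the flg22 effect in Col-0 were seen for 0 to 16 members between 9 and 1 h and for 0 to 26 between 24 and 1 h. The plastid share of Col-0 was 0.978% with the summary lines in the total, and that of the accessions 0.435% without the gene of the highest count.

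For 76 values of named members, 760 alternative values were computed. Of these, 606 kept their direction and side of the threshold, 148 kept their direction but no longer passed, and 6 reversed. The reversed ones all came from scaling each organelle to its own total, with −0.11 for ATCG01130 in Gy-0, and in No-0 −0.14 for ATCG00430, −0.049 for ATCG00670, −0.0003 for ATCG00740, −0.11 for ATCG01130, and −0.046 for ATMG01360. These follow from the construction of that scaling, which sets an organelle's shared rise to 0, and say nothing of the rise itself. With library sizes from nuclear genes all 76 kept their direction and their side of the threshold, and with DESeq2's size factors 75 did. Other settings changed far more of them. Without the replicate block 11 values stayed the same and 45 no longer passed. Of the 76, 36 no longer passed without replicate 1, 19 without replicate 2, and 8 without replicate 3. With each organelle scaled to its own total, 34 no longer passed besides the 6 that reversed. The cause of the other changes was not tested. Mitochondrial values were limited by depth, with at most 2583 counts per library over all their genes. Counts of genes in repeated sequence are not a measure of their RNA, poly(A) selection reads a part of organelle RNA that can differ in size between samples, and the amounts of total organelle RNA were not measured.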
